A study of Mus musculus with 6 samples.

Results

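The genes described here encode 10 neuropeptide precursors, Gcg, Sst, Cartpt, Trh, Gal, Pomc, Npy, Penk, Tac1 and Agrp, among the 39179 gene rows of a bulk RNA sequencing series on newborn mouse retina. They were chosen by name, with the difference between the knockout and control groups already known, so that difference is described for them without a test. All 10 had a row in every library, and no filter on low values was applied to their reads. The conditional knockout (cKO) retinas came from mice with floxed Lhx2 alleles (Lhx2 lox/lox) and Pdgfrα-Cre, a recombinase under the Pdgfra promoter that deletes the floxed gene in cells with a history of that promoter's activity. Control retinas came from Lhx2 lox/lox mice without Cre, although the series text calls them wild type. Both groups were of mixed strain, mainly CD-1, at post natal day 0.5, with 3 mice each, so the presence of Cre and the loss of Lhx2 cannot be told apart.

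Neuropeptides are made as larger precursor proteins that are cut by prohormone convertases, trimmed by carboxypeptidase E and often amidated at their C terminus inside dense core granules. They are released alongside classical transmitters and act mostly on G protein-coupled receptors, and peptidases on the cell surface end their action. In the mature retina, several of them, among them somatostatin, neuropeptide Y, enkephalin and substance P, mark subsets of amacrine cells.

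Gene counts totalled 50960595, 66947478 and 31483170 in cKO 1, 2 and 3, against 43854446, 35813377 and 32698665 in control 2, 3 and 4. The libraries formed 2 sets by the share of reads ambiguous between genes. Set A (cKO 1, cKO 2 and control 2) had 3.13 to 3.20% and set B (cKO 3, control 3 and control 4) had 2.63 to 2.69%, so each set holds both genotypes. Y-linked genes summed to 0.0299 to 0.127 CPM (the read count scaled to library size) in the cKO libraries, and to 215, 0.195 and 375 CPM in control 2, 3 and 4, so sex differs between the groups as well. Lhx2 itself was at 252, 287 and 224 CPM in cKO 1, 2 and 3, against 399, 266 and 258 CPM in control 2, 3 and 4, and its fall was called with library set as a term but not without it (log2 fold change -0.40 ± 0.10 SE, edgeR adjusted p = 0.0338; -0.27 and adjusted p = 0.817 without it, and adjusted p = 0.371 with sex as a further term). That call was also lost without cKO 2 (adjusted p = 0.0602), cKO 3 (0.0727), control 3 (0.0794) or control 2 (0.414), where the log2 fold change was -0.22. The exons that the floxed alleles lose are not stated, and reads outside them may remain. Among the marker lists, lens genes summed to 755 to 1976 CPM in cKO libraries and 1.97 to 4.20 CPM in control libraries, and retinal progenitor genes to 3092 to 4051 CPM in cKO libraries and 5698 to 6157 CPM in control libraries.

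Promoter windows are shown for the 4 precursors whose cKO libraries all lay above the controls and for Npy, whose level was nearly equal in all libraries. Each runs from 250 bases before to 50 bases after the RefSeq start of transcription on GRCm38.p6, 5′ to 3′ on the gene's own strand. Capitals mark matches, on either strand, to TATAAA, where the basal machinery can bind, to TGACGT, the core of a cyclic AMP response element, or to TAATTA, a homeodomain core.
Gcg, chr2:62483604-62483903, minus strand: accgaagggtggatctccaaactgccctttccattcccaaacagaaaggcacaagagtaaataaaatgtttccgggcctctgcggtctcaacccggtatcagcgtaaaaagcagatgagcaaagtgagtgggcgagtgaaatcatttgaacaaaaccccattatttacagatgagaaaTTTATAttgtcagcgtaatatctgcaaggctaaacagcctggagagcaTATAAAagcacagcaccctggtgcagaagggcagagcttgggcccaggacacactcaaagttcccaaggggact
Sst, chr16:23890795-23891094, minus strand: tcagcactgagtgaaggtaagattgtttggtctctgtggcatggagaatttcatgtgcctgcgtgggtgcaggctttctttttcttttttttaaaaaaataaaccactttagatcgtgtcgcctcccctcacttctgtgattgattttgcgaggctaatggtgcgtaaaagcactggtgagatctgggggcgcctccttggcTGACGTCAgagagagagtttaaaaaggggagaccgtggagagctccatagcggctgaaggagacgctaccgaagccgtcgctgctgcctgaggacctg
Cartpt, chr13:99900634-99900933, minus strand: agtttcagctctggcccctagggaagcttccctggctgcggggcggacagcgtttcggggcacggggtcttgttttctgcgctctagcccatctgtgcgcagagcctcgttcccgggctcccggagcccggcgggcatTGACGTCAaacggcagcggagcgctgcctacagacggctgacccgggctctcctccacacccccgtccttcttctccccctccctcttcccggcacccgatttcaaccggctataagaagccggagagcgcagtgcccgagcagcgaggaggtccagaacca
Trh, chr6:92244601-92244900, minus strand: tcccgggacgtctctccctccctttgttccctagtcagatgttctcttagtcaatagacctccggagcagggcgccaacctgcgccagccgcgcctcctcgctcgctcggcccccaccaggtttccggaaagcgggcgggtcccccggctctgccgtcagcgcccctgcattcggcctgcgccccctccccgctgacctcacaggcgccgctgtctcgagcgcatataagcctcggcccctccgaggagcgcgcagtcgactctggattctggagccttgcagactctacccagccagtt
Npy, chr6:49822460-49822759, plus strand: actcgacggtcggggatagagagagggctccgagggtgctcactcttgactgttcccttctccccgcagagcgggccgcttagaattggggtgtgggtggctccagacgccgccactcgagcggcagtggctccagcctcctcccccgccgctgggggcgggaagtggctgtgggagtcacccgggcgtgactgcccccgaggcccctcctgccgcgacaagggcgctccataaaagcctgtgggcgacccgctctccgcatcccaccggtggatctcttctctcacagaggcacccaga

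RefSeq windows were matched for 8 of the 10 genes. The letters TGACGT were found in the Sst and Cartpt windows, in both as the palindrome TGACGTCA so that each strand holds a match, and in 7.51% of all 32851 promoter windows. TATAAA was found in the Gcg and Pomc windows and in 13.6% of all windows, and TAATTA in the Pomc and Tac1 windows and in 5.29% of all windows. The match in Gcg on the gene's own strand begins 24 bases before the start. No match in a window says only that these letters are not there. Of the genes without a window printed above, Gal lies at chr19:3409915-3414544, Pomc at chr12:3954951-3960642, Penk at chr4:4133531-4138819, Tac1 at chr6:7554879-7565834 and Agrp at chr8:105566698-105637393 (GRCm38, GENCODE vM21).

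**Figure D1:**
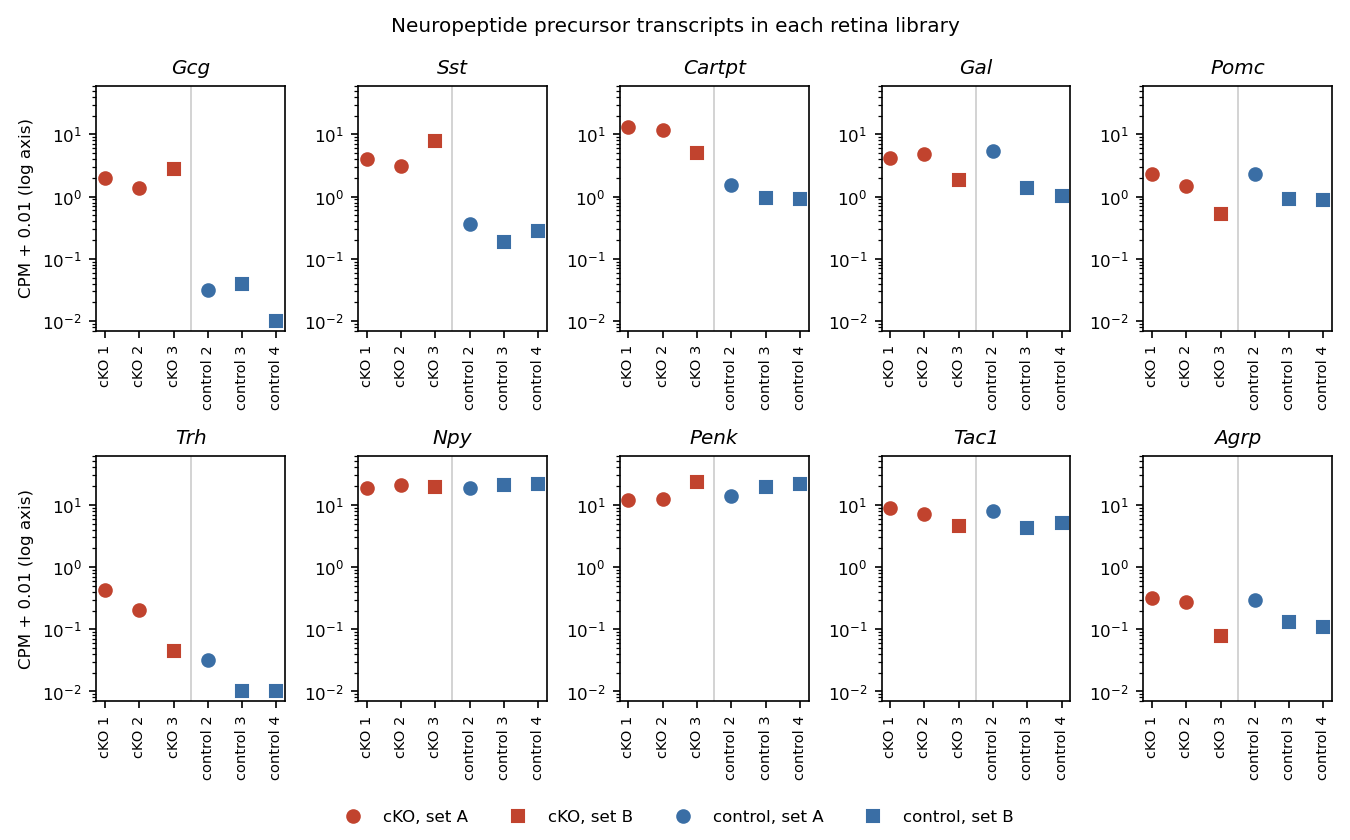
Each panel plots 1 precursor, with the 6 libraries on the x axis and CPM on a logarithmic y axis, a small constant being added so that values of 0 can be drawn. Colours give genotype and shapes give library set. All cKO points of Gcg, Sst, Cartpt and Trh lie above all control points, while the points of Npy lie between 18.8 and 21.4 CPM in both groups.

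Gcg, Sst, Cartpt and Trh were the precursors whose 3 cKO libraries all lay above the 3 controls. Among all 16691 genes tested, 8.38% showed that pattern, 5.54% the reverse, and the choice of genes used this contrast. Gcg, which encodes proglucagon, the source of glucagon and the glucagon-like peptides, had 111, 100 and 82 reads in cKO 1, 2 and 3, against 1, 1 and 0 reads in control 2, 3 and 4. Gcg was thus close to absent from control retinas and present at a low level in every cKO retina, at 2.05 ± 0.708 CPM in cKO and 0.0173 ± 0.0155 CPM in controls (SD, n = 3 each). From the summed reads, 293 against 2, the ratio of cKO to control was 102, with a counting interval of 27.9 to 843 at 95% confidence that does not cover the spread between mice. Gcg passed the filter on low counts only through its cKO libraries.

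Sst encodes somatostatin, an inhibitory peptide of amacrine cells and of many brain interneurons. It had 4.02, 3.07 and 7.86 CPM in cKO 1, 2 and 3, against 0.350, 0.180 and 0.265 CPM in control 2, 3 and 4. The highest control lay far below the lowest cKO library, and the means were 4.98 ± 2.54 CPM in cKO and 0.265 ± 0.0851 CPM in controls (SD, n = 3 each). The fitted log2 fold change was 4.26 ± 0.40 (SE) with library set fitted. The ratio of means within each set was larger in set B, at 5.14 on the log2 scale, than in set A, at 3.34. That difference between sets, fitted as -1.81 ± 0.64 (SE) for set A minus set B, did not pass the interaction test over all genes (edgeR adjusted p = 0.975). Set A has only control 2 and set B only cKO 3, so the test cannot tell whether the sets agree.

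Cartpt encodes the CART prepropeptide, known for its part in feeding circuits. Its levels were 13.3, 11.9 and 5.0 CPM in cKO 1, 2 and 3, against 1.51, 0.927 and 0.895 CPM in control 2, 3 and 4. The cKO library of set B was the lowest of its group but still above each control. The means were 10.1 ± 4.46 CPM in cKO and 1.11 ± 0.345 CPM in controls (SD, n = 3 each), and the fitted log2 fold change was 2.78 ± 0.21 (SE).

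Trh, the precursor of thyrotropin-releasing hormone, did not pass the filter and is given in reads. It had 23, 14 and 1 reads in cKO 1, 2 and 3, against 1, 0 and 0 reads in control 2, 3 and 4. The cKO library of set B, with a single read, hardly differed from the controls in reads, and the cKO reads came mainly from set A. Over the groups, 38 reads in cKO stood against 1 in controls, a ratio of 26.3 with a 95% counting interval of 4.45 to 1068. That ratio pools libraries without regard to set, although set A holds cKO 1 and cKO 2 but only control 2. Its interval does not cover the spread between mice. Within set A the log2 ratio of the means was 3.79, and set B has no ratio because its controls had 0 reads.

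In whole retina, more cells of a type and more RNA per cell cannot be told apart, here or in any value below. With library set as a term, 7 of 7 tested lens genes and 4 of 5 microglia genes were higher in cKO and 7 of 9 progenitor genes were lower with Sfrp2 higher, beside 6.36% higher and 5.63% lower among all genes tested. Crygs had 1, 1 and 0 reads in control 2, 3 and 4, and Mip had 4, 0 and 0. These lens genes passed the filter on low counts only through their cKO libraries, so they could hardly be called lower. Without library set, 5 lens genes were called and 0 microglia, progenitor, ganglion cell or telencephalic genes. The part of such cells in the precursor levels was not tested. Microglia genes summed to 38.6 to 44.7 CPM in cKO and 13.2 to 21.2 CPM in controls. Ganglion cell genes, of which 9 of 10 tested were higher in cKO, summed to 1805 to 2632 CPM in cKO and 1176 to 1466 CPM in controls. Amacrine cell genes, the usual site of several of these peptides, summed to 945 to 1361 CPM in cKO and 857 to 1417 CPM in controls, so their sums overlapped, with Calb2 higher and Ptf1a lower among 11 tested. Telencephalic genes, 4 of 6 tested being higher, summed to 73.4 to 156 CPM in cKO and 56.1 to 93.9 CPM in controls.

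**Figure D2:**
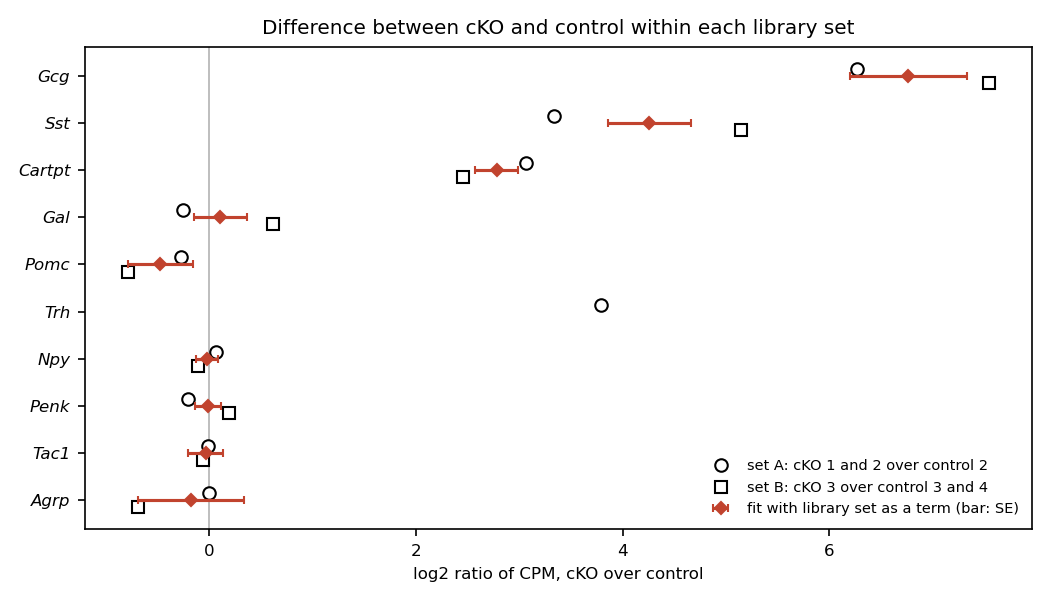
For each precursor, the x axis gives the log2 ratio of CPM, cKO over control. Circles are set A, squares are set B, and diamonds with bars are the fit with library set as a term and its standard error. Gcg, Sst and Cartpt lie right of 0 in both sets, Trh has a ratio in set A only, Pomc lies left of 0 in both, and Gal, Npy, Penk, Tac1 and Agrp lie near 0 in at least 1 set or on both sides of it.

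The other 6 precursors had overlapping groups, and none had all cKO libraries below the controls. Gal, the galanin precursor, had 4.16, 4.77 and 1.84 CPM in cKO 1, 2 and 3, against 5.33, 1.38 and 1.03 CPM in control 2, 3 and 4. The highest Gal value was in a control, and libraries of set A were higher than those of set B in both genotypes. The ratio within set A was -0.26 and that within set B 0.61 on the log2 scale, so the direction differed between sets. In Gcg, Sst, Cartpt and Trh every cKO library was above every control of its own set, as in 22.9% of all genes tested.

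Pomc encodes proopiomelanocortin, the source of ACTH, melanocortins and beta-endorphin. It had 2.27, 1.49 and 0.511 CPM in cKO 1, 2 and 3, against 2.27, 0.898 and 0.861 CPM in control 2, 3 and 4. Group means were close, 1.42 ± 0.880 CPM in cKO and 1.34 ± 0.805 CPM in controls (SD, n = 3 each), but within each set every cKO library was below every control, with log2 ratios of the means of -0.27 in set A and -0.78 in set B. In set A the gap was very small, with cKO 1 at 2.267 CPM and control 2 at 2.273 CPM. In set B it rests on cKO 3 alone, with 15 reads. Of all genes tested, 23.8% had every cKO library below every control within both sets. The fitted log2 fold change was therefore -0.47 ± 0.31 (SE) with library set and 0.09 without it. Agrp, the agouti-related peptide that blocks melanocortin receptors, had 17, 19 and 2 reads in cKO 1, 2 and 3, against 13, 4 and 3 reads in control 2, 3 and 4. Its groups overlapped at these few reads, and 11.3% of its annotated exon bases are shared with Gm5914 and Ctcf, so its reads are uncertain.

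Npy, neuropeptide Y, was the steadiest of the 10. It had 18.8, 20.6 and 19.4 CPM in cKO 1, 2 and 3, against 18.8, 20.6 and 21.4 CPM in control 2, 3 and 4. The fitted log2 fold change was -0.02 ± 0.11 (SE). Penk, the enkephalin precursor, had 12.1, 12.3 and 23.5 CPM in cKO 1, 2 and 3, against 14.1, 19.7 and 21.5 CPM in control 2, 3 and 4. Its cKO libraries held both the lowest and the highest values, and 14.3% of its exon bases overlap A830012C17Rik on the opposite strand, and no source used here states whether counting was by strand. Tac1, the precursor of substance P and neurokinin A, had 8.85, 7.20 and 4.49 CPM in cKO 1, 2 and 3, against 8.06, 4.31 and 5.07 CPM in control 2, 3 and 4, with a fitted log2 fold change of -0.03 ± 0.17 (SE).

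On reads scaled to 1 kilobase of annotated exon and to library size as CPM is, a scale on which levels of different genes can be set side by side, Npy was the highest in both groups, at 34.7 ± 1.62 in cKO and 35.8 ± 2.35 in controls, and Penk the next, at 9.77 ± 3.97 in cKO and 11.3 ± 2.35 in controls (SD, n = 3 each). Below them the order differed. In cKO retinas Cartpt (7.90 ± 3.49) and Sst (6.91 ± 3.52) followed Penk, ahead of Gal (4.55 ± 1.96), Tac1 (2.02 ± 0.648), Gcg (1.37 ± 0.474) and Pomc (1.08 ± 0.668). In control retinas Gal (3.27 ± 3.03), Tac1 (1.71 ± 0.584) and Pomc (1.02 ± 0.611) came before Cartpt (0.869 ± 0.270) and Sst (0.367 ± 0.118). Agrp and Trh were the lowest in cKO, at 0.209 ± 0.124 and 0.154 ± 0.137, and Agrp, Gcg and Trh the lowest in controls, at 0.166 ± 0.100, 0.0116 ± 0.0104 and 0.00526 ± 0.00912. Neighbours in this order had ranges that did not overlap only for Npy and Penk and for Pomc and Agrp in cKO, and for Npy and Penk, Penk and Gal, Cartpt and Sst, and Agrp and Gcg in controls.

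The difference between the 2 library sets, which the choice of genes did not use, was tested with genotype as a term. The share of reads on mitochondrial genes moved with set, from 1.15 to 1.79% across set A libraries against 7.14 to 9.55% across those of set B. Its part in the set differences was not tested. Of the 9 precursors tested, 5 were higher in set A and Penk was lower, a share of 66.7% that stands beside 63.7% of all genes tested, with 31.2% of all genes higher in set A, so the share called was near that of all genes. Gal had the largest set difference, 1.72 ± 0.26 (SE) on the log2 scale (edgeR adjusted p = 0.000379), with means of 4.75 CPM in set A and 1.41 CPM in set B. Pomc differed by 1.58 ± 0.32 (adjusted p = 0.00203) and Cartpt by 1.09 ± 0.21 (adjusted p = 0.00153). Tac1 differed by 0.81 ± 0.17 (adjusted p = 0.00265), and Penk by -0.74 ± 0.12 (adjusted p = 0.000668). Agrp differed by 1.59 ± 0.55 (adjusted p = 0.0303), a call that was lost without any one of cKO 1, cKO 2, cKO 3, control 2 and control 4, with DESeq2 and with no filter, where adjusted p was 0.0584 to 0.173. The Cartpt call was lost without cKO 3, where the difference was 0.70 (adjusted p = 0.0706). Gcg (-0.67 ± 0.43, adjusted p = 0.203), Sst (-0.65 ± 0.37, adjusted p = 0.159) and Npy (-0.07 ± 0.11, adjusted p = 0.594) did not pass. For Sst, leaving out control 2 brought the set difference past the threshold, at -1.15 (adjusted p = 0.0129). No precursor passed the interaction of genotype and set, which 0.0240% of all genes did in edgeR's test. At an unadjusted p under 0.05 in edgeR's test the interaction was met by 704 genes, Sst among them. With DESeq2 it was met by 35 genes at the adjusted threshold, none of them a precursor.

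**Figure D3:**
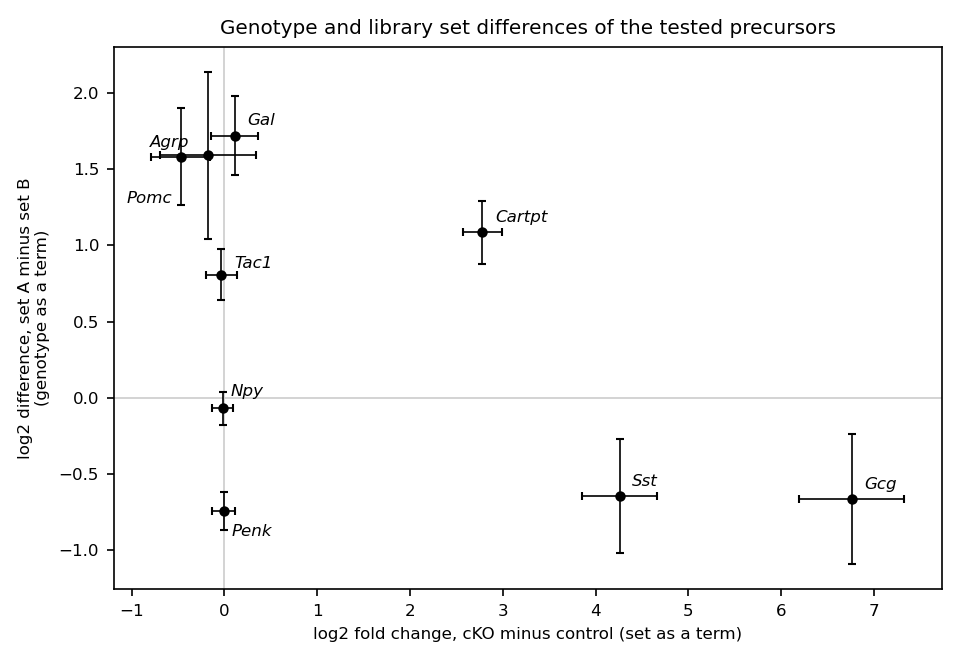
Points are the 9 tested precursors, the x axis gives the log2 fold change of cKO over control with library set as a term, the y axis the log2 difference of set A over set B with genotype as a term, and bars are standard errors. Gcg, Sst and Cartpt lie far right of the others. Gal, Pomc and Agrp have the largest set differences, at log2 fold changes of 0.11, -0.47 and -0.17.

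Genes whose levels over the 6 libraries were most like those of the 3 precursors of highest mean CPM, a scale that favours long transcripts, were sought by Pearson's r of log2 CPM among 12931 genes. These are descriptions over 6 libraries that differ in depth and in set, and set was not fitted here. Penk and Tac1 differed between sets, as did 63.7% of all genes tested. The part of set in these r values was not tested. For Npy they were Stk38l (r = 0.98), Grm5 (0.96) and Xcr1 (0.96), with 8 genes above 0.9. For Penk they were Rbfox1 (0.998), Hpgd (0.997) and Ankrd52 (0.996), and for Tac1 Pigyl (0.999), Ndufs3 (0.999) and B9d2 (0.998), but 2746 and 2836 genes exceeded an r of 0.9 there.

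The remaining genes of the pathway were read from the same fit, with p-values adjusted over all 16691 genes. Of 59 tested genes on these lists, 9 were higher in cKO, 1 was lower and 49 did not pass, while 6.36% of all genes tested were higher and 5.63% lower. The median log2 fold change of the processing and granule genes was 0.19 and that of all genes tested -0.00. None of these 10 calls was made without library set as a term, where 36 genes of all (0.216%) passed and 1292 had an unadjusted p under 0.05.

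Among 48 other precursors with a row, 19 were tested, of which Adcyap1, the precursor of PACAP, was the only one called. It had 8.89, 6.92 and 8.48 CPM in cKO 1, 2 and 3, against 3.21, 3.02 and 2.88 CPM in control 2, 3 and 4. All cKO libraries exceeded all controls, with a log2 fold change of 1.41 ± 0.18 (SE) and an adjusted p of 0.00260. Pnoc, the nociceptin precursor, and Vgf, a granule protein and precursor, averaged 6.96 ± 1.67 and 7.05 ± 2.36 CPM in cKO and 7.29 ± 3.93 and 7.04 ± 2.68 CPM in controls, and neither passed (adjusted p = 0.451 and 0.483). The other 29 precursors had too few reads to test. Avp, the vasopressin precursor, had 10, 4 and 0 reads in cKO 1, 2 and 3, against 0 in each control, so its reads came from set A alone and cKO 3 equalled the controls.

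Among the 20 enzymes and granule proteins that make and store peptides, 6 were higher in cKO, 0 were lower and 14 did not pass. Pam, which amidates peptides at their C terminus, had 91.1, 91.8 and 97.8 CPM in cKO 1, 2 and 3, against 60.8, 65.1 and 56.7 CPM in control 2, 3 and 4 (log2 fold change 0.64 ± 0.09 SE, adjusted p = 0.00328). Ptprn2, a membrane protein of dense core granules, averaged 74.6 ± 2.01 CPM in cKO and 49.1 ± 8.23 CPM in controls (0.55 ± 0.11, adjusted p = 0.0128). Cpe, carboxypeptidase E, was at 525 ± 123 CPM in cKO and 342 ± 91.0 CPM in controls (0.41 ± 0.08, adjusted p = 0.0131). Cadps, needed for granule priming, was at 104 ± 2.60 CPM in cKO and 77.4 ± 6.32 CPM in controls (0.42 ± 0.09, adjusted p = 0.0197). Pcsk1n, an inhibitor of a prohormone convertase, and Scg3, a secretogranin, also rose (0.57 ± 0.14 and 0.41 ± 0.09, adjusted p = 0.0330 and 0.0239), while Chgb, a granule protein at 254 ± 101 CPM in cKO and 311 ± 125 CPM in controls, did not pass (adjusted p = 0.823). Of the 20, 4 had all cKO libraries above all controls, among them Pam, Ptprn2 and Cadps, and 1 had all below. Among all genes tested, these patterns held for 8.38% and 5.54%. Cpe, Pcsk1n and Scg3 had overlapping groups.

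Of 27 receptor genes with a row, 11 were tested, and Tacr3, the receptor of neurokinin B, was the only one called. It was lower in cKO, at 1.62 ± 0.644 CPM in cKO and 3.89 ± 1.62 CPM in controls (SD, n = 3 each), with a log2 fold change of -0.93 ± 0.25 (SE) and an adjusted p of 0.0436. Its groups overlapped in 1 place, as cKO 3 had 2.35 CPM and control 2 had 2.29 CPM. Sstr2, a somatostatin receptor, had 22.5, 25.6 and 36.8 CPM in cKO 1, 2 and 3, against 21.4, 17.6 and 18.9 CPM in control 2, 3 and 4, and did not pass (0.59 ± 0.17, adjusted p = 0.0579). It passed with DESeq2 (0.0227), with no filter (0.000193), without cKO 1 (0.0191) and without control 2 (0.00951) as adjusted p, and its log2 fold change was 0.20 without cKO 3 and 1.01 without control 2.

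Of 9 peptidases tested, 2 were higher in cKO. Mme, neprilysin, which cleaves enkephalins and tachykinins, had 3.09, 2.76 and 10.3 CPM in cKO 1, 2 and 3, against 0.787, 1.20 and 1.42 CPM in control 2, 3 and 4. The cKO libraries exceeded the controls in every case, with a log2 fold change of 2.48 ± 0.28 (SE) and an adjusted p of 0.00139. Nln, neurolysin, averaged 36.9 ± 15.2 CPM in cKO and 30.8 ± 9.79 CPM in controls (0.55 ± 0.08, adjusted p = 0.00518). The groups overlapped for Nln, with 28.4 and 27.9 CPM in cKO 1 and 2, against 37.1 and 35.8 CPM in control 3 and 4. Within each set its cKO libraries lay above the controls, as in 22.9% of all genes tested. Ece1 and Prep did not pass (adjusted p = 0.532 and 0.510). Of the 10 calls across these lists, 9 were lost with sex as a further term and 9 without cKO 3, Mme being kept in both. Tacr3 was lost without any one of the 6 libraries, Scg3 without cKO 2 or any control, Pcsk1n and Cpe without any control, and Cadps without control 2 or control 4.

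**Figure D4:**
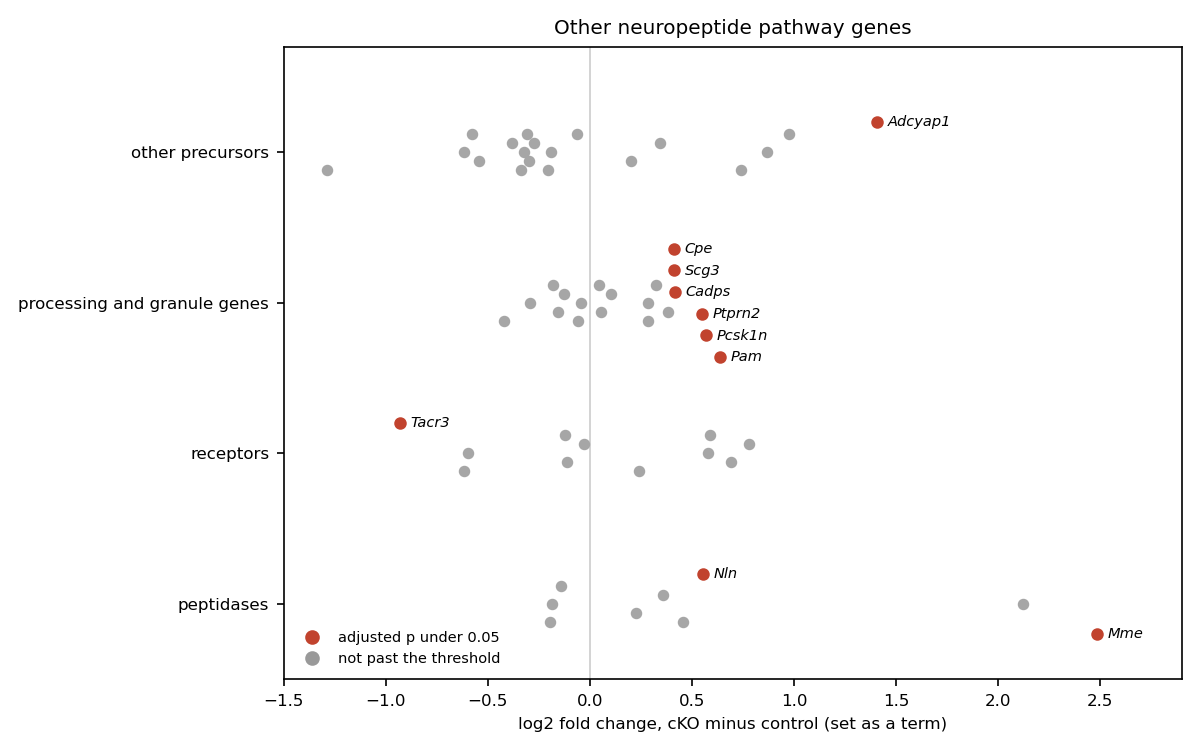
Each point is a tested gene of 4 lists (rows), and the x axis gives the log2 fold change of cKO over control with library set as a term. Coloured and named points passed an adjusted p of 0.05. Most coloured points lie right of 0, and Tacr3 lies at -0.93.

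The sites where these peptides are usually made include the hypothalamus, the pancreatic islet and the pituitary, so markers of each were read. Hypothalamic genes summed to 166 to 224 CPM in cKO and 166 to 200 CPM in controls. With library set as a term, 3 of 5 tested were higher and 1, Tbx3, was lower. Among all genes tested, 6.36% were higher and 5.63% lower. Otp, a homeodomain factor of peptide-producing hypothalamic neurons, had 6.78, 4.31 and 15.4 CPM in cKO 1, 2 and 3, against 0.0656, 0.0299 and 0.133 CPM in control 2, 3 and 4. Sim1, which acts with Otp in that region, had 49, 38 and 61 reads in cKO 1, 2 and 3, against 0 in each control, at least 34.2-fold higher in cKO setting the controls at 3 reads in all. Both genes had no overlap between groups. Otp and Sim1 are among the 3 called higher, but both passed the filter on low counts only through their cKO libraries. Their calls as higher were thus close to fixed in advance. Bsx had 0 reads in all libraries, and Nkx2-1, a defining gene of the ventral hypothalamus, had 2 reads in cKO 2 alone. Nr5a1, a factor of the ventromedial hypothalamus, had 4, 3 and 5 reads in cKO 1, 2 and 3, against 0 in each control.

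Islet genes summed to 16.6 to 21.1 CPM in cKO and 12.7 to 16.3 CPM in controls. Ins2 had 0 reads in every library and Ins1 had 1 in all. Of the pituitary genes, Gh, Prl, Cga and Tbx19 had 0 reads throughout, and the list summed to 1.02 to 4.59 CPM in cKO and 0.778 to 4.96 CPM in controls. The part of any of these cells in the precursor levels was not tested.

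**Figure D5:**
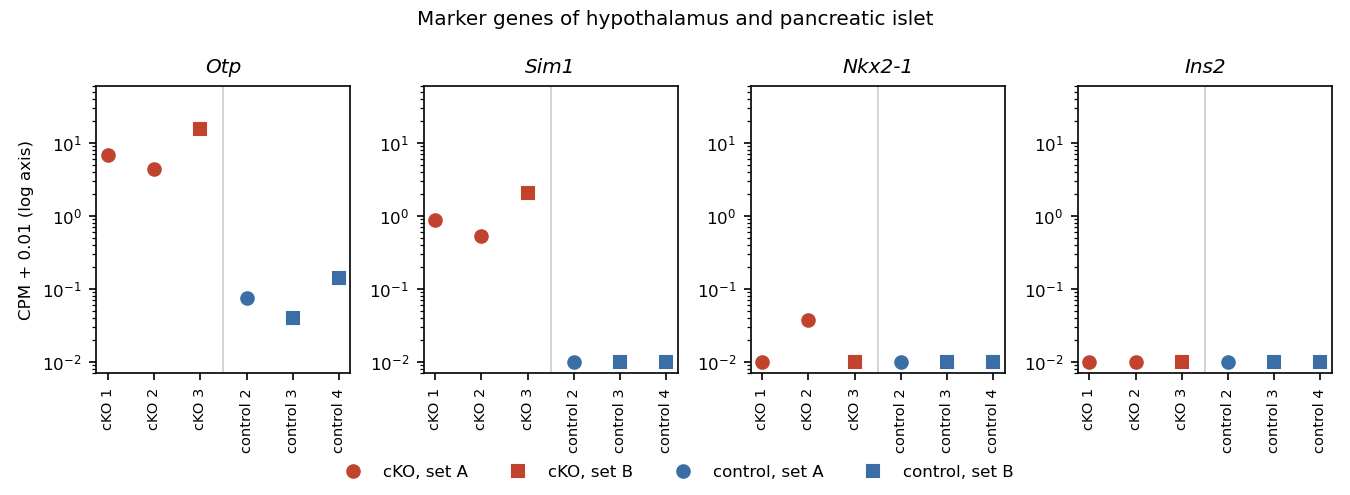
The panels plot CPM on a logarithmic y axis, with a small constant added, for 4 marker genes of hypothalamus and pancreatic islet in the 6 libraries. Otp and Sim1 are higher in all cKO libraries than in all controls, whereas Nkx2-1 and Ins2 are at or near 0 in both groups.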

How the data were processed

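Retinal RNA of 6 mice was sequenced in 1 library each. The authors deposited raw counts of reads for each Ensembl gene, and STAR, HTSeq, edgeR and GRCm38 are named in the submitters' processing notes. Of 39179 gene rows, 37607 (96.0%) were given a symbol from GENCODE vM21. The 5 rows naming no gene held 26.4 to 28.8% of counts and stayed out of library sizes. Pairs of libraries of a group differed by 24.8 to 574 times the counting expectation, so none repeats another.

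The fits used edgeR 4.0.16 in R 4.3.3. The function filterByExpr kept 16691 genes, and TMM scaled the libraries. With library set and genotype as terms, glmQLFit and glmQLFTest gave log2 fold changes (cKO minus control) and Benjamini-Hochberg adjusted p-values (threshold 0.05). These p-values set the genotype difference against the spread between libraries that remains after library set is fitted. Set A was defined by over 2.9% of counts ambiguous between genes, a technical measure. Alternatives were no set, sex as a term, the label number as a block, RLE scaling, other filters, DESeq2 1.42.0 and leaving out each library. Those for the set difference and interaction were chosen after seeing the data. Precursor proteins were not used here.

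The precursors, the lists and the set rule were chosen with earlier results of these data known. Genes named are all precursors, list genes past the threshold (at most 12 a list), the 2 most abundant of each list, and Lhx2. Others (Sstr2, Avp, the marker genes) were chosen after their values were seen. Intervals and floors cover counting error only. Some marker genes are not reported here.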

Additional observations from a re-analysis of the deposited data

How the results depend on the processing

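Over the alternatives run, the log2 fold change of cKO over control kept its direction for Gcg (6.13 to 7.24), Sst (3.36 to 5.21) and Cartpt (2.45 to 3.18). It took both signs for Gal (-0.23 to 0.61), Pomc (-0.78 to 0.09), Npy (-0.11 to 0.10), Penk (-0.21 to 0.19), Tac1 (-0.11 to 0.24) and Agrp (-0.67 to 0.35). Genes higher in cKO numbered 1062, against 36 without library set, 173 with sex as a term and 176 to 1371 when 1 library was left out. Genes lower in cKO numbered 939, against 0 without library set, 63 with sex, 1592 with no filter, 1672 with DESeq2 and 134 to 1336 when 1 library was left out. Pathway genes higher in cKO numbered 9, against 0 without library set, 1 with sex and 1 to 11 when 1 library was left out. The 1 lower pathway gene, Tacr3, became 0 without library set, with sex and with the block, 3 with no filter, and 0 to 0 when 1 library was left out. The interaction count of 4 became 171 with no filter, 35 with DESeq2 and 19 to 110 when 1 library was left out. The cause of these changes was not tested.

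With the label number as a replicate block, which only numbers 2 and 3 share and which no label ties to a litter or batch, 1007 genes were higher and 1033 lower in cKO, and 9 pathway genes were higher. The calls of Pcsk1n (adjusted p = 0.0805) and Tacr3 (adjusted p = 0.144) were lost under the block.

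Signs turned for genes that were not called. Pnoc ranged from -0.533 to 0.00636 when 1 library was left out. Vgf was 0.00359 without library set and 0.21 with sex. Chgb was -0.29 without library set, and -0.0269 to 0.157 when 1 library was left out, with -0.03 also without control 2. Ece1 was 0.0232 with sex, and -0.505 to 0.15 when 1 library was left out. Prep ranged from -0.284 to 0.0264 when 1 library was left out. The set difference ranged from -0.873 to 0.40 for Gcg and from -1.15 to 0.63 for Sst when 1 library was left out, the sign turning without cKO 3 for both. For Npy it was 0.0106 with no filter, and -0.184 to 0.0248 when 1 library was left out. Trh and Agrp rest on few reads, so small differences in them were not detectable at this depth.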
